A study of Mus musculus with 61 samples.

Results

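The genes of the synaptic vesicle release machinery were examined in RNA sequencing libraries of sorted mouse retinal cells. Members were chosen by name alone: synaptotagmins (Syt), syntaxins (Stx), VAMPs, SNAPs, syntaxin binding proteins (Stxbp), complexins (Cplx), Rims and Unc13 proteins, SV2 proteins, synapsins (Syn1, Syn2, Syn3), Syp, Sypl, Bsn and Pclo. This gave 70 of the 15149 genes in the deposited table, and the rule uses no measured value. Of the 70 members, 58 had reads in every library, and together the members took a mean of 1.248% of the reads.

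The 61 libraries fall into 5 groups from 2 strains. Nicotinamide, a form of vitamin B3 from which cells make NAD, was given at 500 mg per kg per day to DBA/2J mice, which gave 7 libraries of 9 months. The other groups received water: at 9 months DBA/2J with 25 libraries and D2-Gpnmb+ with 9, and at 4 months 10 libraries of each strain. DBA/2J mice carry a mutation of Gpnmb and develop glaucoma with age, and the control strain D2-Gpnmb+ shares this genetic background but has a working Gpnmb allele. All groups were sorted the same way, as cells positive for Thy1.2 and negative for Cd11b, Cd11c, Cd34, Cd45.2 and GFAP, from eyes without glaucomatous loss of axons. Whether each library is another animal is not stated, and the p-values below cover the spread among libraries, which may be technical.

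A synaptic vesicle fuses when the vesicle SNARE (a VAMP) zips up with syntaxin and a SNAP protein of the plasma membrane. Unc13 proteins help to form this complex, complexins clamp it, and synaptotagmins trigger fusion when calcium enters. In the retina, photoreceptors and bipolar cells release glutamate at ribbon synapses, which use Stx3, Cplx3 and Cplx4 and lack synapsins, whereas amacrine cells have conventional synapses with Stx1a and Cplx1 or Cplx2. Retinal ganglion cells, which the labels name as the sorted cells, send their output to the brain.

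The ribbon synapse paralogs and their conventional synapse counterparts differed widely in level, so promoters of both kinds are shown, from 250 bases before to 50 bases after the start of the gene (RefSeq, GRCm38.p6). They cover chr19:11819354-11819653 (minus strand) for Stx3, chr5:135023232-135023531 (plus strand) for Stx1a, chr9:57606232-57606531 (minus strand) for Cplx3 and chr5:108549978-108550277 (minus strand) for Cplx1. Capitals mark TAATCC, the core bound by the photoreceptor and bipolar cell factors OTX2 and CRX, and GGGCGG, the GC box, each searched on both strands (as GGATTA and CCGCCC on the other). The motifs do not overlap.
Stx3: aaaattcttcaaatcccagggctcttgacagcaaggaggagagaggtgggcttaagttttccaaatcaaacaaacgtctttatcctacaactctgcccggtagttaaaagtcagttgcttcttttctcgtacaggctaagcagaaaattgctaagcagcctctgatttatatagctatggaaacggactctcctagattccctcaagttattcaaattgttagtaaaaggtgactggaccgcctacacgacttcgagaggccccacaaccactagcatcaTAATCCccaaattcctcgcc
Stx1a: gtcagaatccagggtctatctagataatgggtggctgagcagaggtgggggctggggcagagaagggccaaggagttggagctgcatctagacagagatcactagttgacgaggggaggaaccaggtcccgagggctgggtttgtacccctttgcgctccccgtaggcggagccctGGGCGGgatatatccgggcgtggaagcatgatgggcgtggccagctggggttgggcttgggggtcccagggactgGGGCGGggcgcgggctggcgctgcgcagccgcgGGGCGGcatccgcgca
Cplx3: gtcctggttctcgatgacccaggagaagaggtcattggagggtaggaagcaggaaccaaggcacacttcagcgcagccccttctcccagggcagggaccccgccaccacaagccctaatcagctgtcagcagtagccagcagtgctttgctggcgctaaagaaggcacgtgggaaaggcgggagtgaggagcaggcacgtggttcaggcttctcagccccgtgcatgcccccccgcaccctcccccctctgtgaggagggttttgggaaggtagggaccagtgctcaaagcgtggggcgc
Cplx1: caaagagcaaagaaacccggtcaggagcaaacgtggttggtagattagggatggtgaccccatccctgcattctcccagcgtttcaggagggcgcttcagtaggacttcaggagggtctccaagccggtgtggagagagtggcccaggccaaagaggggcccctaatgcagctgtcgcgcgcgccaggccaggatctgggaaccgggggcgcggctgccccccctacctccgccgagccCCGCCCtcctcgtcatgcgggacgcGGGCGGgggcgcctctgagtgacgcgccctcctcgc
The Stx3 promoter held 44.0% G and C, 1 TAATCC at position 31 (counted from 1 at the first transcribed base) and no GC box. The Stx1a promoter held 66.3% G and C and 3 GC boxes, at positions -74, 2 and 35. The Cplx3 promoter held 62.7% G and C and neither motif, and the Cplx1 promoter 67.0% and GC boxes at -11 and 15. TAATCC was in 7.463% of 67 promoters of 53 members and in 7.062% of the 32851 promoters of all genes. Among members it was in the promoters of Rims3, Stx3, Sv2b and Syp. The GC box was in 68.657% of member promoters (41 of 53 members) and in 35.658% of all promoters. These matches describe letters in these windows and say nothing of binding.

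Libraries held 5133114 to 19501444 reads (median 9730486), and values are read counts that the authors had scaled between libraries. Gpnmb was lower in DBA/2J at 4 months, with a log2 difference of -3.06 (limma, adjusted p = 5.01e-08). At 9 months on water the strains overlapped widely in it over all libraries. DBA/2J had 8.39 to 78.3 (median 26.5) and D2-Gpnmb+ 11.9 to 83.5 (median 44.3), with D2-Gpnmb+ library 1 the lowest of its group. Markers of ganglion cells were present but low: per kilobase of exon, the median marker stood at 0.934, against 87.9 for rods, 101 for bipolar cells, 70.1 for cones, 34.0 for Müller glia and astrocytes, 1.98 for amacrine and horizontal cells and 0 for microglia. In such bulk libraries, fewer cells of a type and less RNA per cell cannot be told apart. The columns of the table form 3 stretches, called block 1 (10 libraries), block 2 (18) and block 3 (33), and what they stand for is not stated. Block 3 holds every 4-month and every nicotinamide library but only 3 of 25 DBA/2J and 3 of 9 D2-Gpnmb+ water libraries of 9 months, so each comparison by age or treatment is also given within block 3. Inside block 3 the columns are sorted by treatment and strain, and neither can be told apart from column order there.

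Among the plasma membrane SNAREs, Snap25 (chr2:136713453-136782428), the SNAP protein of neurons, was the highest member, with a mean scaled count of 3441 over all libraries, above 99.91% of genes. Per kilobase it stood at 1540, against 5.71 for Snap23, its counterpart in most other tissues, a ratio of 270 with a range of 191 to 404 over the 5 groups. Stx3 (chr19:11775118-11819403), the ribbon synapse syntaxin whose promoter held TAATCC, averaged 448 scaled counts and 99.1 per kilobase. Stx1a, a syntaxin of conventional synapses, stood at 0.518 per kilobase. Stx3 was thus 191 times Stx1a (92.9 to 357 over groups), and it was higher in 61 of 61 libraries. Vamp2, the main vesicle SNARE of neurons, stood at 236 per kilobase and was 49.2 times Vamp1.

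The complexins showed the same order of paralogs. Cplx4 (chr18:65955722-65970237) stood at 152 and Cplx3 at 45.6 per kilobase, and both are complexins of retinal ribbon synapses. Cplx2 and Cplx1, the complexins of conventional synapses, stood at 8.47 and 1.57 per kilobase. The ratio of Cplx4 to Cplx2 was 17.9 and ranged from 10.5 to 32.1 over groups, and that of Cplx3 to Cplx2 was 5.38, with a range of 2.13 to 9.51. In all 61 libraries Cplx4 and Cplx3 were each above Cplx2 and Cplx1.

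Of the proteins that prepare vesicles, Unc13b (Munc13-2) stood at 22.4 per kilobase and Unc13a (Munc13-1) at 9.08, with Unc13b 2.47 times Unc13a and the range over groups narrow (2.28 to 2.80). Rims2, a scaffold that ties vesicles to calcium channels, stood at 50.7 per kilobase and was 54.9 times Rims1. Pclo (piccolo), a giant scaffold of ribbons and active zones, averaged 904 scaled counts but 41.0 per kilobase because its exons are long.

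Among vesicle proteins, Syp (synaptophysin) stood at 377, Sv2b at 139 and Sv2a at 27.9 per kilobase. Syt1, the calcium sensor of fast release, stood at 165 per kilobase and was 828 times Syt2. Syn1, a synapsin that tethers vesicles at conventional synapses, stood at 20.6 and Syn2 at 0.50 per kilobase. At the other end, Syt17 stood at 0.0862 and Rims3 at 0.0588 per kilobase. Within each of the pairs above the same paralog was higher in all 61 libraries.

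**Figure D1:**
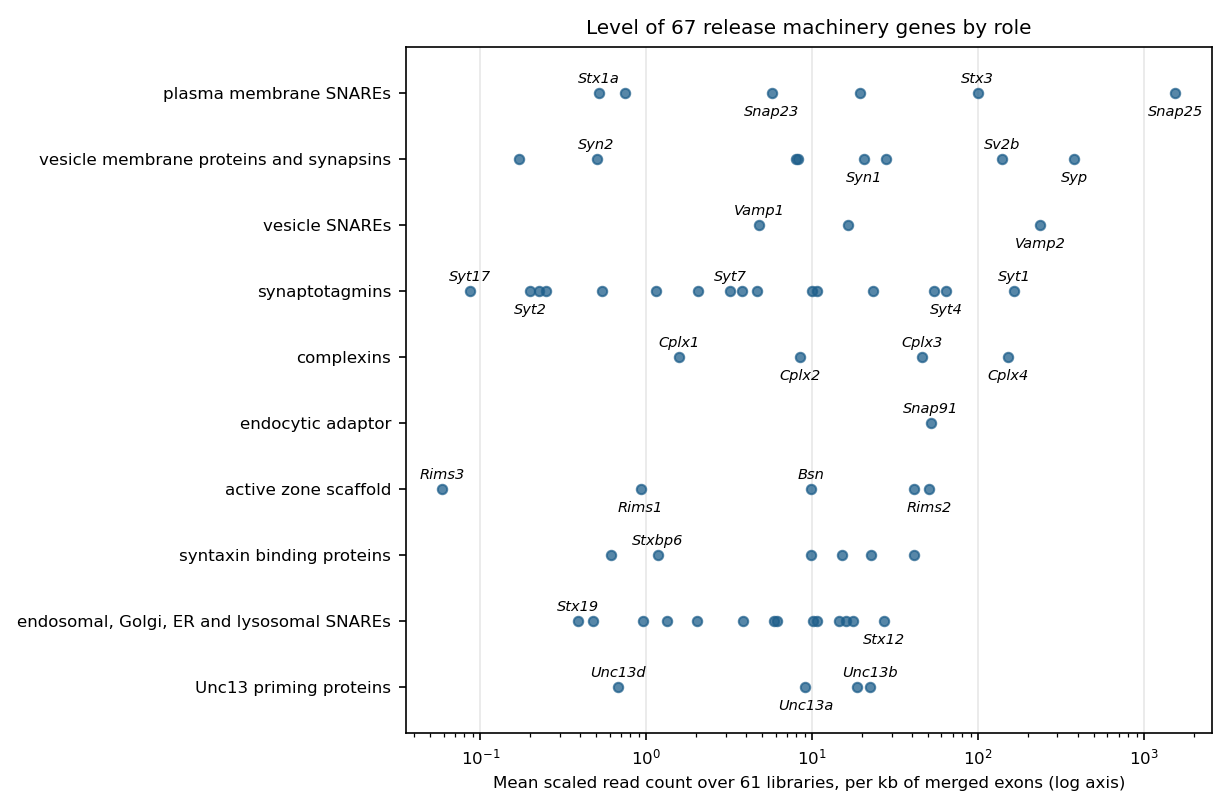
Mean level per kilobase of exon (log axis) of 67 members with an annotated length, in rows by role, each point 1 gene averaged over 61 libraries. Snap25 stands highest at 1540 and Rims3 lowest at 0.0588, and the ribbon synapse members Cplx4 (152) and Stx3 (99.1) stand far right of Cplx1 (1.57) and Stx1a (0.518).

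Snap25 and Syp differed between the blocks within the same strain, age and treatment. Snap25 averaged 994 ± 253 in block 1 (SD, n = 6), 2758 ± 1102 in block 2 (n = 16) and 4674 ± 962 in block 3 (n = 3) in 9-month DBA/2J on water. In 9-month D2-Gpnmb+ the means of blocks 1 to 3 were 879, 3409 and 4684 (n = 4, 2 and 3). The highest block 1 library of Snap25 lay below the lowest of block 3 in both strains. Syp followed the same order, with 394 in block 1 and 1279 in block 3 in DBA/2J, and 305 and 1193 in D2-Gpnmb+. Over all 65 members tested in DBA/2J, 43 were lower in block 1 than in block 3, 15 of them by more than 2-fold, with a median log2 difference of -0.42. Over all genes 48.1% were lower, 7.04% by more than 2-fold, and the median was 0.03. In D2-Gpnmb+ 44 of 69 members were lower, 25 of them more than 2-fold, with a median of -0.48, where 48.1% of all genes were lower, 10.7% by more than 2-fold, with a median of 0.03. Block 2 lay closer to block 3, with a median member difference of -0.14 in DBA/2J and -0.05 in D2-Gpnmb+. Summed Müller glia and astrocyte markers ran from 3904 to 8394 in block 1 and from 378 to 1505 in block 3 of DBA/2J, and their part in the result was not tested.

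**Figure D2:**
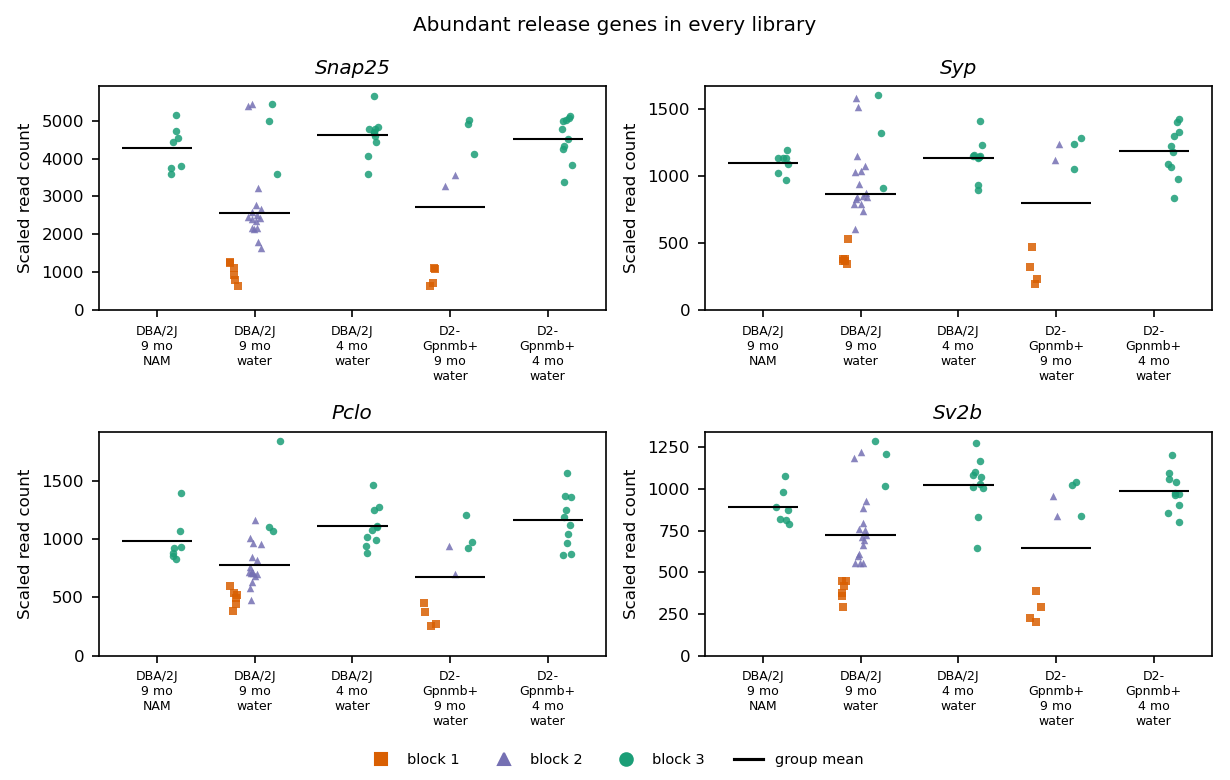
Scaled read count of Snap25, Syp, Pclo and Sv2b in each library of the 5 groups, coloured by block, with the group mean as a black line. In the 9-month water groups block 1 libraries have the lowest mean (Snap25 994 ± 253 in DBA/2J), and block 3 libraries (4674 ± 962) stand near the 4-month (4610 ± 537) and nicotinamide (4285 ± 580) means.

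The first question was what changed with age in DBA/2J, before axon loss. Over all libraries, 25 of 66 members passed the test (limma on log2 of the scaled count plus 1, Benjamini-Hochberg adjusted p under 0.05 over all genes tested), 21 lower and 4 higher at 9 months. The background was 22.4% of all genes tested, 13.2% lower and 9.25% higher. The median log2 difference was -0.30 for members and 0.02 for all genes. Within block 3, 0 of 66 members passed, against 0.263% of all genes (11 members at an unadjusted p under 0.05, against 10.7% of genes). edgeR called 0 members and 0.417% of genes there, and with the block as a covariate 0 members passed, against 0.0589% of genes. The covariate fit also takes its difference from block 3, since blocks 1 and 2 hold no 4-month library. Of the 25, 15 kept their sign in block 3 and 10 did not, and their median size in the called direction was 0.74 over all libraries and 0.16 in block 3. The block 3 libraries are in both fits, so the signs of the 2 fits are not independent.

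By role, 5 of 8 vesicle membrane proteins and synapsins were lower, 2 of 4 active zone scaffolds, 2 of 7 plasma membrane SNAREs, 3 of 7 syntaxin binding proteins, 1 of 4 complexins and 0 of 3 vesicle SNAREs. Of 14 synaptotagmins 4 were lower and 1 higher, of 4 Unc13 proteins 1 was lower and 1 higher, and of 14 SNAREs of endosomes, Golgi, ER and lysosomes 2 were lower and 2 higher. The endocytic adaptor Snap91 was lower by 0.33.

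For Snap25, Bsn, Pclo, Sv2b, the synapsins Syn1 and Syn3, and Sv2a the difference over all libraries was larger in size than that within block 3. Snap25 ranged from 642 through a median of 2400 to 5442 at 9 months, against 3592, 4684 and 5664 at 4 months, and the 3 block 3 libraries of 9 months had 3594, 4990 and 5438. The log2 difference was -1.06 ± 0.26 (SE; limma, adjusted p = 0.00342) over all libraries and 0.01 ± 0.14 (adjusted p = 0.995) in block 3, where the groups overlapped. Bsn (bassoon, a ribbon and active zone scaffold) fell by 0.74 over all libraries (adjusted p = 0.0014), against -0.01 in block 3. Pclo was at -0.59 over all libraries (adjusted p = 0.00854) and 0.23 in block 3, and Sv2b at -0.59 (adjusted p = 0.0194) and 0.21. For these 3 the block 3 value was near 0 or above it. Syn1 fell by 0.95 (adjusted p = 0.00263), with -0.17 in block 3, and Syn3 by 0.74 (adjusted p = 0.00138), with -0.16. Syn1 overlaps Araf and Syn3 overlaps Timp3 on the opposite strand, and since it is not stated whether the library kit kept strand, reads cannot be told apart where they overlap. Sv2a fell by 0.63 (adjusted p = 0.0129), with -0.27 in block 3. Stx5a, a Golgi SNARE, rose by 0.60 over all libraries (adjusted p = 0.000917), with -0.13 in block 3. Stx18, an ER SNARE, rose by 0.53 (adjusted p = 0.0156), with 0.41 in block 3, and Unc13d, the Munc13 of blood cell granules, by 0.79 (adjusted p = 0.0102), with 0.54. Stx18, with a mean scaled count of 4.02 over all libraries, overlaps Nsg1 (9.62) on the opposite strand, so the same limit on reads holds for it.

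Several less abundant members kept their direction and much of their size in block 3 without passing there. Cplx2 ranged from 5.30 through 17.3 to 120 at 9 months, against 17, 42.8 and 120 at 4 months, and the block 3 libraries of 9 months had 14, 15.6 and 52.6. Its log2 difference was -1.17 ± 0.34 (adjusted p = 0.0123) over all libraries and -0.97 ± 0.55 (adjusted p = 0.578) in block 3. Syt7, a slow calcium sensor, was at -1.94 ± 0.48 (adjusted p = 0.00392) over all libraries and -1.02 in block 3. Syn2 was at -1.36 (adjusted p = 0.00107) and -0.84. These 3 members were lower in both fits, which share the block 3 libraries. Unc13c (Munc13-3) fell by 1.10 (adjusted p = 0.00525), with a smaller -0.33 in block 3, and Syt10, which rose by 0.86 (adjusted p = 0.0458), turned to -0.89 in block 3. Syt10 passed in 12 of 35 fits that leave out 1 library, and Snap91 was lost without 4-month library 1, whereas the other calls given by name for age passed in all of them.

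The ribbon synapse paralogs Stx3, Cplx3 and Cplx4 did not pass: Stx3 was at 0.09 ± 0.13, Cplx3 at -0.01 ± 0.17 and Cplx4 at 0.24 ± 0.33 over all libraries. Cplx4 had the smallest block 3 p of the members, with 265, 272 and 411 in the 3 libraries of 9 months, against 162, 199 and 262 as lowest, median and highest at 4 months, without overlap. Its block 3 difference was 0.62 ± 0.15 (adjusted p = 0.0959) and, without DBA/2J library 27, 0.73 (adjusted p = 0.0413), where 1.83% of all genes passed. Syt2 in block 3 was at 1.31 ± 0.33 (adjusted p = 0.11), from a mean scaled count of 4.79 at 9 months and 1.06 at 4 months, and it overlaps Ppp1r12b on the opposite strand. Syt1 (-0.35), Vamp2 (-0.29), Rims2 (-0.24), Unc13a (-0.22), Unc13b (-0.13), Syp (-0.52, adjusted p = 0.0674), Rims1 (-0.59, adjusted p = 0.0873), Cplx1 (-0.54), Sv2c (-0.39), Stx1a (0.29) and Vamp1 (0.19) did not pass either. Amacrine and horizontal cell markers moved in the direction of Cplx2, Syt7 and Syn2: 7 of 10 tested were lower over all libraries (median -1.75), and in block 3 none of 10 was called, with a median of -0.86. Ganglion cell markers (3 of 11, median -0.52), bipolar cell markers (5 of 13, median -0.37) and cone markers (2 of 10, median -0.30) also held genes called lower over all libraries. Rod markers (6 of 16, median 1.04), Müller glia and astrocyte markers (5 of 12, median 0.92) and microglia markers (8 of 9, median 1.49) held genes called higher. The shares of all genes were 13.2% lower and 9.25% higher. None of these lists held a call in block 3, where only 1 of 10 microglia markers was tested. Summed microglia markers of 9-month DBA/2J on water ran from 6.73 to 231 in block 2, 0.348 to 3.05 in block 1 and 1.06 to 1.94 in block 3. At 4 months they ran from 0.65 to 3.57. The part of these lists in the result was not tested. The share of member calls that were higher was 16% with limma, 20.8% with edgeR (5 of 24, where 23.3% of all genes were called) and 29.6% with DESeq2 (8 of 27, where 27.3% were). The calls over all genes shifted too, with 1257 of 3044 higher with limma, 1712 of 3160 with edgeR and 2192 of 3709 with DESeq2.

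The second question was how 9-month DBA/2J on nicotinamide differed from those on water. Over all libraries, 21 of 67 members passed, 19 higher and 2 lower on nicotinamide. The background was 15.1% of all genes tested, 9.78% higher and 5.34% lower, and the medians were 0.29 for members and -0.03 for all genes. Within block 3, where 3 water libraries remain, 0 of 65 members passed, against 0.00749% of all genes (15 members at an unadjusted p under 0.05, against 16.8% of genes). edgeR called 0 members there too, against 0.00749% of genes, and with the block as a covariate 0 members and 0% of genes passed. That fit also takes its difference from block 3, which holds every nicotinamide library. Of the 21, 15 kept their sign in block 3, whose libraries are in both fits. Their median size in the called direction was 0.95 over all libraries and 0.34 in block 3. This comparison and that of age share the 9-month DBA/2J water libraries, so their values are not independent.

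By role, 4 of 8 vesicle membrane proteins and synapsins were higher, 5 of 15 synaptotagmins, 4 of 7 syntaxin binding proteins, 2 of 7 plasma membrane SNAREs, 1 of 4 complexins and 1 of 4 active zone scaffolds. Of 4 Unc13 proteins 1 was higher and 1 lower, as were 1 and 1 of 14 SNAREs of endosomes, Golgi, ER and lysosomes, and 0 of 3 vesicle SNAREs passed.

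Among the largest increases was Cplx2, the complexin of conventional synapses. Cplx2 had scaled counts of 39.9, 46.3, 88.2, 89.9, 107, 112 and 177 in the 7 nicotinamide libraries, against a range of 5.30 to 120 with a median of 17.3 in the 25 water libraries. The 3 water libraries of block 3 had 14, 15.6 and 52.6, and 1 of them lay inside the nicotinamide range. The log2 difference was 2.06 ± 0.38 (limma, adjusted p = 0.000618) over all libraries and 1.85 ± 0.50 (adjusted p = 0.132) in block 3. Stxbp6 (amisyn), which binds syntaxin in place of a VAMP, ran from 4.55 through 11.5 to 15.9 on nicotinamide, against 1.79, 2.03 and 2.52 on water in block 3, without overlap. It differed by 1.41 ± 0.29 (adjusted p = 0.00142) over all libraries and 1.80 (adjusted p = 0.0585) in block 3.

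Syt7 was at 2.49 ± 0.52 (adjusted p = 0.00156) over all libraries and 1.57 (adjusted p = 0.246) in block 3. Syn2 was at 1.70 (adjusted p = 0.000277) and 1.19 (adjusted p = 0.152). Water library 27 was the highest of the 3 block 3 water libraries for Cplx2, Syt7 and Syn2. Without it, 4 members passed in block 3, where 2.77% of all genes did, among them Cplx2 at 2.44 (adjusted p = 0.0303), Stxbp6 at 1.72 (adjusted p = 0.0298) and Unc13c at 0.78 (adjusted p = 0.0159). With library 26 or 28 left out instead, 0 of 65 members and 0% of all genes passed. At an unadjusted p under 0.05 there were 13 and 15 members, against 1820 of 13574 and 2158 of 13615 genes.

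**Figure D3:**
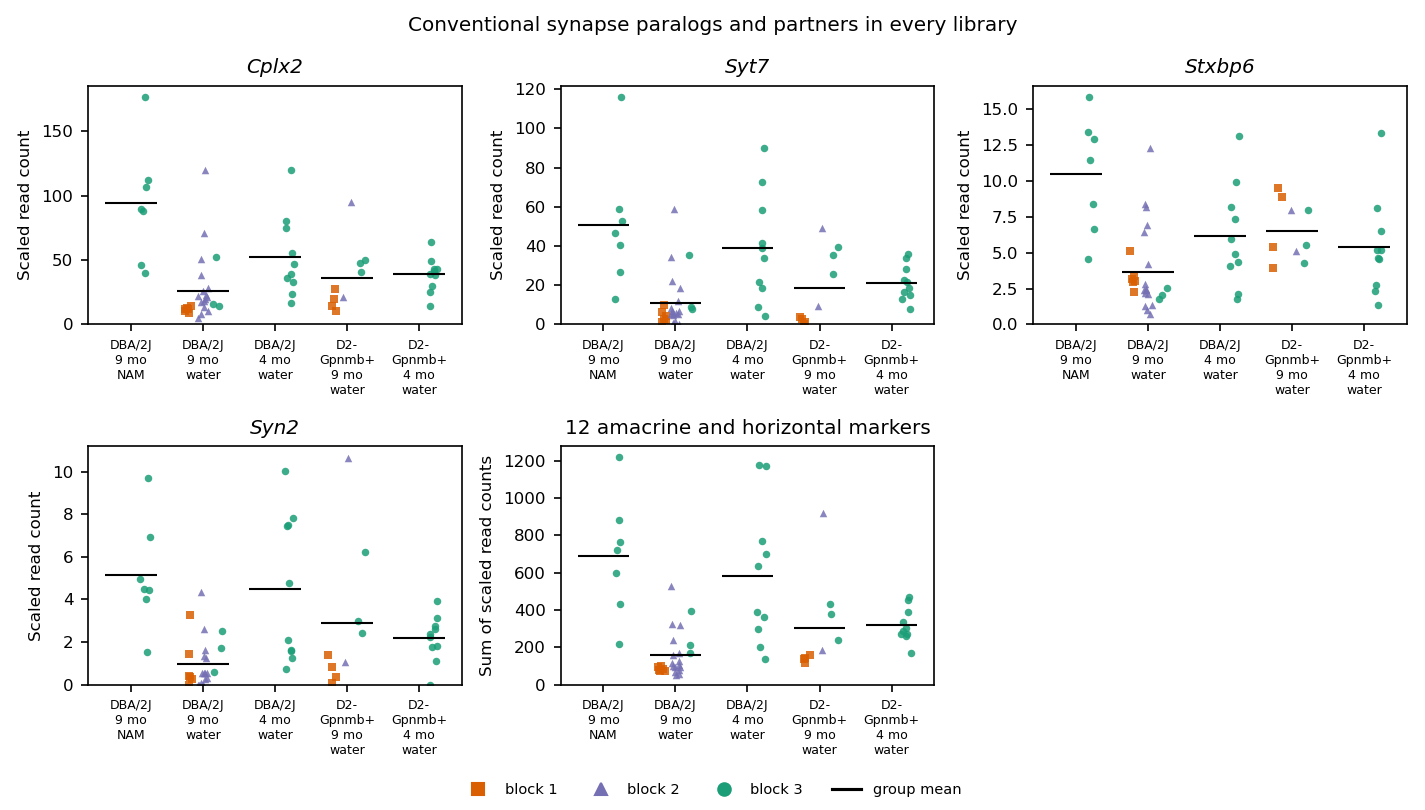
Scaled read count of Cplx2, Syt7, Stxbp6 and Syn2, and the summed count of 12 amacrine and horizontal cell markers, in each library of the 5 groups, coloured by block, with group means as black lines. Nicotinamide libraries sit high (Cplx2 39.9 to 177) and 9-month DBA/2J water libraries low (median 17.3), and the marker sum spreads in the same order.

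Amacrine and horizontal cell markers moved with these members. Their summed scaled count ran from 220 through 723 to 1219 on nicotinamide, against 49.9, 100 and 528 on water, and 168, 213 and 394 in the 3 water libraries of block 3. Over all libraries 9 of 10 tested markers were higher (median 2.40), and in block 3 none of 11 was called, with a median of 1.36. Müller glia and astrocyte markers moved the other way over all libraries, 5 of 12 lower (median -1.03), with a median of 0.97 and no call in block 3. Of the cone markers 8 of 10 were higher (median 1.01) and of the ganglion cell markers 3 of 12 (median 0.57), with medians of 0.41 and 0.17 and no call in block 3. Microglia markers were lower for 3 of 9 (median -1.45). Endothelial and pericyte markers were lower for 2 of 7 (median -0.79), with a median of -0.49 and no call in block 3. The shares of all genes over all libraries were 9.78% higher and 5.34% lower. The part of these lists in the result was not tested.

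Snap25, Bsn, Syn3 and Syn1 again differed less within block 3. Snap25 had 3598 to 5138 on nicotinamide (mean 4285 ± 580, SD, n = 7), against 3594, 4990 and 5438 on water in block 3. Its difference was 0.95 ± 0.31 (adjusted p = 0.0319) over all libraries and -0.11 ± 0.15 (adjusted p = 0.756) in block 3. Bsn was at 0.70 over all libraries (adjusted p = 0.0116) and -0.03 in block 3, Syn3 at 0.58 (adjusted p = 0.0348) and 0.00, and Syn1 at 1.10 (adjusted p = 0.00405) and 0.32. Stxbp5 (tomosyn, a brake on priming) was at 0.93 (adjusted p = 0.00417) and 0.28. Sv2a was at 0.70 (adjusted p = 0.0227) and 0.34, Unc13c at 1.23 (adjusted p = 0.00716) and 0.46, and Syt2 at 1.04 (adjusted p = 0.0222) and -0.43. Of the 2 members that fell, Stx5a was at -0.63 (adjusted p = 0.00369) and 0.10 in block 3, and Unc13d at -0.82 (adjusted p = 0.023) and -0.58. Summed microglia markers ran from 0.558 through 1.18 to 2.44 on nicotinamide, against 0.348, 12.1 and 231 on water. The 3 block 3 water libraries had 1.06, 1.92 and 1.94, inside the nicotinamide range.

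The same ribbon synapse paralogs did not pass, with Stx3 at -0.06 ± 0.15, Cplx3 at -0.19 ± 0.21 and Cplx4 at 0.60 ± 0.39 over all libraries. Neither did Syt1 (0.40), Pclo (0.41), Sv2b (0.41), Syp (0.47), Rims1 (0.51), Rims2 (0.24), Vamp2 (0.18), Vamp1 (-0.20), Unc13a (0.09), Unc13b (0.02), Stx1a (0.03), Sv2c (0.00) or Cplx1 (0.70, adjusted p = 0.0804). Leaving out nicotinamide library 2, 3, 4, 7 or 8 ended the call of Snap25. That of Syn3 was lost without library 1, 2, 3, 4 or 7, that of Sv2a without 3, 4 or 7, that of Syt2 without 2 or 3, and that of Unc13d without 3 or 4. The other calls given by name for nicotinamide passed in all 32 fits that leave out 1 library. Of the limma calls 90.5% were higher, against 68.2% with edgeR (15 of 22, where 16.3% of all genes were called) and 72% with DESeq2 (18 of 25, where 21.1% were). The calls over all genes shifted too, with 1362 of 2105 higher with limma, 1031 of 2275 with edgeR and 1186 of 2938 with DESeq2.

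**Figure D4:**
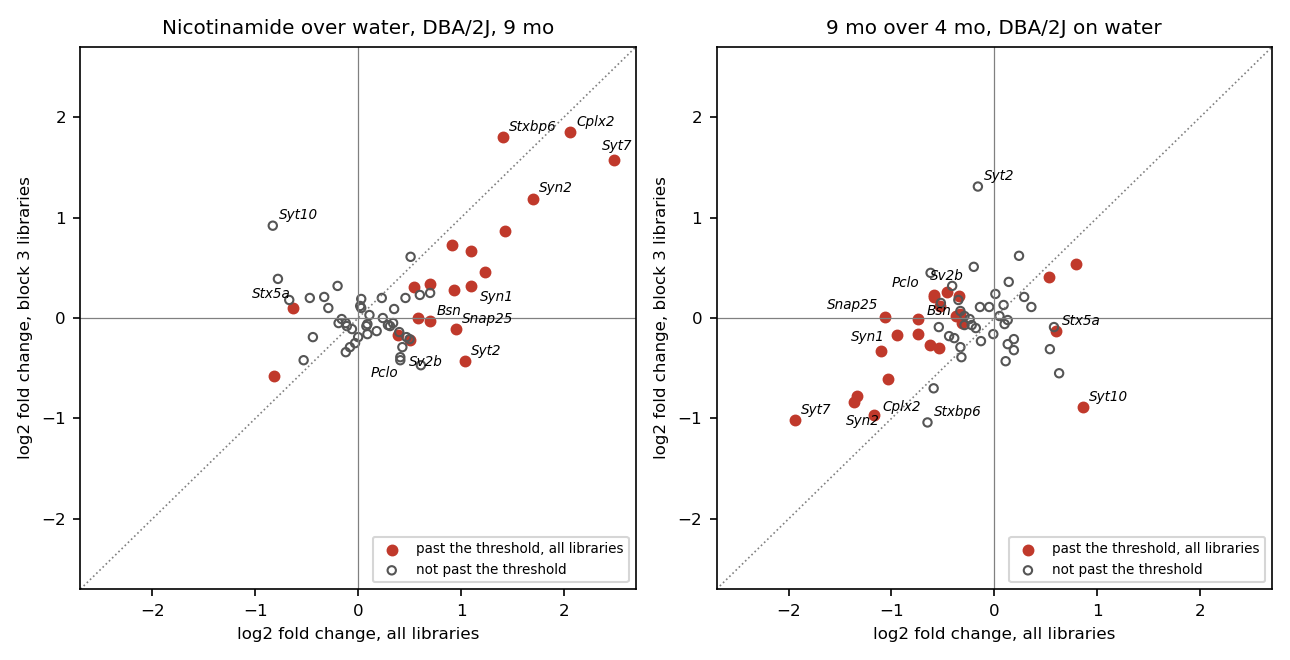
log2 difference of members over all libraries (x) and in block 3 alone (y), for nicotinamide against water at 9 months (left) and 9 against 4 months in DBA/2J (right), with members past the threshold over all libraries in red. On the left Cplx2 (2.06 and 1.85) and Stxbp6 (1.41 and 1.80) lie near the diagonal, and in both panels Snap25 (0.95 and -0.11 on the left, -1.06 and 0.01 on the right) lies near 0 on the vertical axis.

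The comparison of nicotinamide-treated 9-month with untreated 4-month DBA/2J lies wholly in block 3, and here 1 of 64 members passed, against 1.54% of all genes. That member was Cplx4, a ribbon synapse complexin. Its scaled counts ran from 255 through 340 to 532 on nicotinamide at 9 months (mean 374 ± 105, SD, n = 7), against 162, 199 and 262 on water at 4 months (mean 203 ± 32.2, n = 10). The lowest nicotinamide library lay just below the highest 4-month library, so the ranges overlapped slightly. The log2 difference was 0.84 ± 0.14 (limma, adjusted p = 0.00768), and it passed in all 17 fits that leave out 1 library, between 0.75 and 0.93 (adjusted p 0.00356 to 0.0226). Treatment and age differ together in this comparison and cannot be told apart; the untreated 9-month libraries of block 3, with 265, 272 and 411, lay inside the nicotinamide range.

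Stx3 and Cplx3 did not pass. Stx3 averaged 441 ± 20.7 on nicotinamide at 9 months and 435 ± 36.1 on water at 4 months, a difference of 0.02 ± 0.06 (adjusted p = 0.909). Cplx3 averaged 120 ± 20.1 on nicotinamide at 9 months and 138 ± 17.8 on water at 4 months, a difference of -0.20 ± 0.10 (adjusted p = 0.324). Rod and cone markers stood higher beside Cplx4, with 3 of 16 rod and 2 of 10 cone markers called higher, where 1.54% of all genes were called. Rod sums ran from 8920 through 11383 to 20206 on nicotinamide, against 5172, 7950 and 11352 at 4 months. Markers of bipolar cells, which also have ribbon synapses, went the other way, with 1 of 13 called lower (median -0.34). Of 10 amacrine and horizontal cell markers 1 was called higher (median 0.26). The part of these marker lists was not tested. Syt2 was at 0.88 ± 0.24 (adjusted p = 0.0626). It passed with edgeR (1.54, adjusted p = 0.044) and DESeq2 (adjusted p = 0.00918), which called 2 members each, against 1.59% and 3.83% of all genes, and with limma when nicotinamide library 8 or 4-month library 3 was left out, as did Syt9, a calcium sensor, at -0.52 and -0.48 (3.14% and 2.69% of all genes called). Cplx2 was at 0.89 ± 0.38 (adjusted p = 0.275), Syn2 at 0.34 ± 0.40 and Snap25 at -0.11 ± 0.09, none of which passed.

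**Figure D5:**
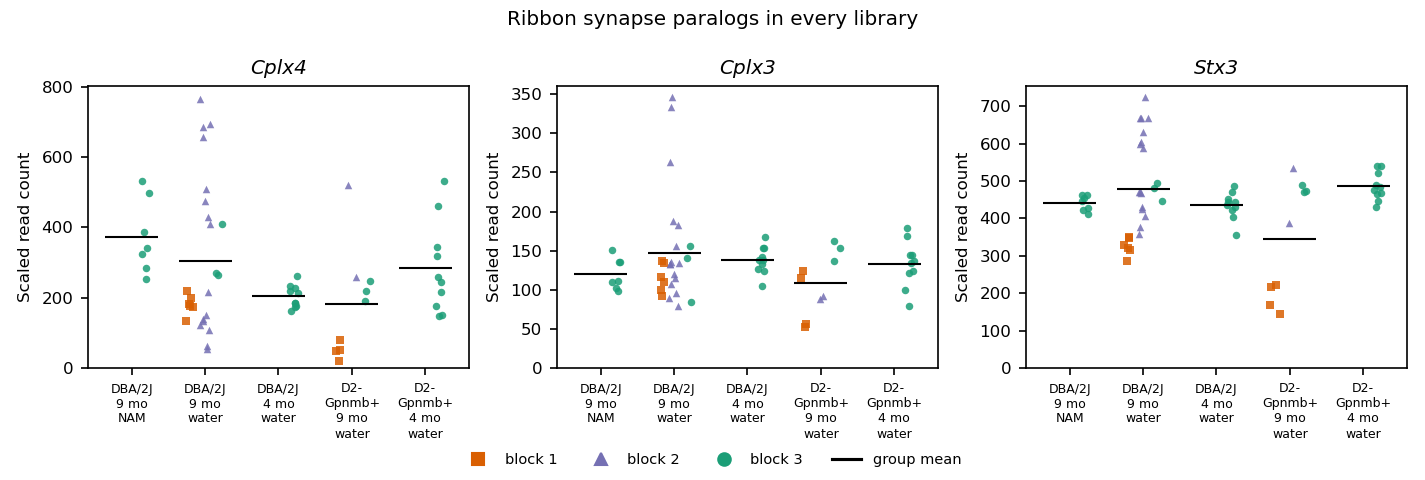
Scaled read count of the ribbon synapse members Cplx4, Cplx3 and Stx3 in each library of the 5 groups, coloured by block, with group means as black lines. Cplx4 averages 374 on nicotinamide and 203 in 4-month DBA/2J, while Stx3 averages 441 and 435 in the same groups.

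The strains were compared at each age. At 4 months 0 of 65 members passed, against 0.25% of all genes tested, with 6 members (13.5% of all genes) at an unadjusted p under 0.05. edgeR called 0 (0.281% of all genes) and DESeq2 1 (1.87%). That member was Sv2a, a vesicle glycoprotein that binds the drug levetiracetam, with a mean scaled count of 151 in DBA/2J and 110 in D2-Gpnmb+. Its log2 difference was 0.45 ± 0.14 (limma, adjusted p = 0.145; DESeq2, adjusted p = 0.0492). Over 24 core members, log2 differences ran from -0.37 for Cplx4 to 0.61 for Syn2. The median over all members was 0.05, Snap25 was at 0.03 ± 0.09 and Stx3 at -0.16 ± 0.07. Cplx4 was at -0.37 ± 0.20, with a mean of 203 in DBA/2J and 285 in D2-Gpnmb+, and did not pass (adjusted p = 0.441).

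At 9 months 0 of 65 members passed over all libraries, against 0.0218% of all genes, and 16 were at an unadjusted p under 0.05 (13.2% of all genes). edgeR called 0 (0.08% of all genes) and DESeq2 1 (2.31%), Unc13c at -0.87 (adjusted p = 0.0442). Over all libraries limma gave Unc13c -1.01 ± 0.29 (adjusted p = 0.136), Rims1 -0.83 ± 0.28 (adjusted p = 0.176) and Stx3 0.57 ± 0.19 (adjusted p = 0.175). Over 25 core members, values lay between that of Unc13c and 0.98 for Cplx4. Leaving out 1 library gave 0 calls in 33 of 34 fits, among them the one without D2-Gpnmb+ library 1, and 1 without library 9 (Syt14, 0.85), where 0.397% of all genes passed. Within block 3, with 3 libraries of each strain, 0 of 63 members and 0% of all genes passed, and 11 members were at an unadjusted p under 0.05 (6.36% of all genes; edgeR also called 0). Without DBA/2J library 27, Cplx2 at -1.58 and Syt7 at -1.87 passed in block 3 (adjusted p = 0.0157 each), where 0.285% of all genes did. In block 2 alone 0 of 68 passed, against 0% of all genes, with 4 members and 5.42% of all genes at an unadjusted p under 0.05.

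Block 1 alone, a division added after the values were seen, gave another picture for 6 DBA/2J and 4 D2-Gpnmb+ libraries of 9 months. There 13 of 62 members passed, against 12.3% of all genes, 9 higher and 4 lower in DBA/2J (4.56% and 7.69% of all genes). Cplx4 had 133, 173, 175, 183, 198 and 219 in DBA/2J, against 18.7, 49.1, 50.5 and 80.1 in D2-Gpnmb+. The groups did not overlap, and the difference was 1.99 ± 0.26 (limma, adjusted p = 0.000162). Stx3 averaged 325 ± 23.6 in DBA/2J and 188 ± 37.2 in D2-Gpnmb+ (0.81, adjusted p = 0.00117), and Rims2 differed by 0.88 (adjusted p = 0.000897). In the other direction, Syt10 averaged 13.5 ± 6.31 in DBA/2J and 43.8 ± 6.38 in D2-Gpnmb+ (-1.80, adjusted p = 0.00137). Rims1 was at -1.23 (adjusted p = 0.0249). The same differences in block 2, with 16 and 2 libraries, were -0.54 for Cplx4, 0.20 for Stx3, -0.42 for Rims2 and 0.15 for Syt10, and none passed. Leaving out 1 library of block 1 gave 7 to 14 calls (7.86% to 12.1% of all genes), with 7 when D2-Gpnmb+ library 1, the library low in Gpnmb, was left out (7.86%). Cplx4, Rims2, Stx3, Syt10, Syt14 and Syt15 passed in all 10 of these fits. Other cell types differed between these libraries: Müller glia and astrocyte marker sums ran from 3904 to 8394 in DBA/2J, against 11319 to 16194 in D2-Gpnmb+, and the median rod sum was 10069 in DBA/2J and 3025 in D2-Gpnmb+. Their part was not tested.

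With age in D2-Gpnmb+, 0 of 65 members passed, against 0.0232% of all genes, although 23 members and 30.3% of all genes were at an unadjusted p under 0.05. Core members close to the threshold included Unc13b at -0.55 ± 0.15 (limma, adjusted p = 0.0741), Pclo at -0.95 ± 0.26 and Bsn at -0.73 ± 0.21 (adjusted p = 0.075 each), and Snap25 at -1.14 ± 0.36 (adjusted p = 0.0795). edgeR called 6 members, Syt10 (2.49), Syt15 (1.65), Rims1 (0.77), Stx5a (0.67) and Vamp8 (0.56) higher and Unc13b (-0.53) lower, where it called 11.6% of all genes, and DESeq2 called 10, where it called 16.4%. Leaving out D2-Gpnmb+ library 13, 14 or 15, the 3 block 3 libraries of 9 months, gave 15, 9 or 8 calls, where 15.9%, 8.18% and 9.27% of all genes passed, and leaving out library 9 gave 6, where 7.75% did. Of these calls 5, 2, 2 and 2 were higher at 9 months. Syt10 was among the higher ones in each of these fits, at 1.82, 1.87, 1.86 and 1.81. In block 3, 0 of 66 members and 0% of all genes passed (4 members and 4.68% of genes at an unadjusted p under 0.05; edgeR also called 0). Snap25 was at 0.05 ± 0.12 there, with 4120, 4909 and 5022 at 9 months, against a mean of 4529 ± 590 at 4 months. Over all libraries the core members ran from Snap25 to Vamp1 at 0.63. In block 3 Pclo was at -0.15 ± 0.16, Stx3 at -0.02 ± 0.10 and Cplx4 at -0.26 ± 0.35.

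Whether the change with age differed between the strains was tested as an interaction, and 0 of 67 members passed, against 0.375% of all genes, with 13 members and 12.9% of genes at an unadjusted p under 0.05. edgeR called 0 (0.297% of genes) and DESeq2 2 (2.07%), among them Unc13c at -1.25. With limma the difference of the age changes (DBA/2J minus D2-Gpnmb+) was -1.33 ± 0.39 for Unc13c (adjusted p = 0.0957), -1.21 ± 0.36 for Rims1 (adjusted p = 0.0973) and 1.35 ± 0.57 for Cplx4 (adjusted p = 0.289). Leaving out D2-Gpnmb+ library 9 let Rims1, Unc13c and Syt14 pass (1.68% of all genes), and leaving out 4-month DBA/2J library 10 let 1 member pass (0.559%). In block 3, 0 of 67 passed, against 0.0774% of genes (10 members and 8.29% of genes at an unadjusted p under 0.05). edgeR also called 0 there, against 0.0633% of genes. Snap25 was at -0.05 ± 0.18 with limma there.

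Other genes of the vesicle cycle were read beside the members. With age in DBA/2J, 6 of 25 genes of SNARE disassembly and docking were lower over all libraries, among them the small GTPase Rab3c (-1.89) and the dense-core vesicle priming factor Cadps (-0.78), and 3 of 9 vesicle transporters and proteins, led by Slc32a1, the GABA and glycine transporter (-2.26). Of 21 recycling genes 3 were lower (Dnm3 -0.91, Sh3gl2 -0.76, Itsn1 -0.38) and 1 higher (Sh3gl1 0.62), and of 5 ribbon genes 2 were higher, the calcium channel subunits Cacna1f (0.42) and Cacna2d4 (0.35). Over all genes 13.2% were lower and 9.25% higher. On nicotinamide, 4 of 25 genes of SNARE disassembly and docking were higher, led by Rab3c (2.37), and 1 lower (Napa, which disassembles SNAREs with NSF, -0.45). Of 9 vesicle transporters and proteins 2 were higher, Slc32a1 (2.56) and Scamp1 (0.62). Of 21 recycling genes Dnm3 was higher (1.25) and Sh3gl1 lower (-0.63), and of 5 ribbon genes 1 was lower, Cacna2d4 (-0.38). Over all genes 9.78% were higher and 5.34% lower. In block 3 none of these lists held a gene past the threshold in either comparison. Slc32a1 is also among the amacrine and horizontal cell markers.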

How the data were processed

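RNA from sorted retinal cells was sequenced in 61 libraries. Per the submitters' processing notes, TopHat2 2.0.7, Bowtie2 2.0.6, the build mm10 and HTSeq were used. The deposited values are a signal: read counts that the authors scaled per library, how is not stated in the labels. Within 0.05, 100% of values were whole multiples of a step per library, which gave the reads. Of 15171 rows, 22 with date-like names were left out. Columns name a group and a library number but no sample, and numbers pair nothing. The columns were divided into 3 blocks by their order after values were looked at. Whether the library kit kept strand is not stated in the labels.

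Per comparison, limma 3.58.1 (R 4.3.3; trended, robust) was fitted on log2 of the value plus 1, on no other groups than those compared, and tested genes that reached 1 in a number of libraries equal to the smaller group's size. P-values were adjusted by Benjamini-Hochberg over all genes, with a threshold of 0.05. A log2 difference on this scale understates changes of low genes. edgeR 4.0.16 and DESeq2 1.42.0 on the recovered reads, a pseudocount of 0.5, no filter, scaling to library totals, the block as a covariate, block 3 alone and leaving out each library were alternatives. The limma fit was also run on simulated counts for some of the comparisons. These counts held no difference between blocks, so they cannot show how the fits behave where blocks differ. Levels per kilobase use exon lengths of GENCODE for 69 members. Members follow a rule on gene names, and this rule and the lists were chosen with earlier results of these data known. A pair of members is counted in the tests but not reported here. Named were 25 core members (the main neuronal SNAREs, complexins, Unc13 and scaffold proteins, synapsins and vesicle proteins), the 10 most abundant and, per comparison, up to 10 largest increases and decreases past the threshold whose larger group mean reached 5, and each gene of any count up to 5.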

Additional observations from a re-analysis of the deposited data

Results flagged for a closer look

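In groups of 4 to 10 libraries, 100 combinations of a core member and a group were screened for a library far from the others, and 6 stood out, where chance gives about 1 in 20. In 9-month D2-Gpnmb+ on water, library 8 was highest for Cplx2 (95.36 scaled counts, next 50.38) and Syt2 (4.287, next 1.534), and it also had the highest amacrine and horizontal marker sum of its group (922). Library 9 of that group was highest for Cplx4 (520.1, next 259.7) and library 5 for Stx1a (9.36, next 2.707). Libraries 8 and 9 are the only 2 block 2 libraries of that group, beside 4 of block 1 and 3 of block 3. The screen did not take the blocks into account. In nicotinamide-treated DBA/2J, library 2 was highest for Syt2 (8.326, next 3.209). In 4-month D2-Gpnmb+, library 6 was highest for Syn3 (76.02, next 59.42).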

How the results depend on the processing

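A pseudocount of 0.5 and no filter kept each count of members within 1.5 times. Scaling to library totals moved the median of all genes by 0.23 for strain at 4 months, 0.32 for age in D2-Gpnmb+ and -0.32 for the interaction. For the interaction it called 3 of 67 members, all lower, against 1.52% of all genes (205 of 215 calls lower). With the block as a covariate or with block 3 alone, the counts were 0 for age in DBA/2J and 0 for nicotinamide, also with edgeR in block 3, which by construction leaves 3 water libraries of 9 months. In block 3 the sign turned for 10 of the 25 members called for age and 6 of the 21 for nicotinamide. Among the members chosen for naming, 9 values turned. For age in DBA/2J these were Pclo 0.23, Snap25 0.01, Stx5a -0.13, Sv2b 0.21 and Syt10 -0.89. For nicotinamide they were Bsn -0.03, Snap25 -0.11, Stx5a 0.10 and Syt2 -0.43. The same values turned with the block as a covariate, which was fixed by the design. Blocks 1 and 2 hold no 4-month or nicotinamide library, so that fit takes these differences from block 3. DESeq2 called 1 member for strain at 4 months, 1 for strain at 9 months, 10 for age in D2-Gpnmb+, 2 for nicotinamide against 4 months and 2 for the interaction, and edgeR called 6 for age in D2-Gpnmb+ and 2 for nicotinamide against 4 months. Strain at 9 months within block 1 gave 13. The cause of these changes was not tested.

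Leaving out 1 library gave 0 to 1 calls for strain at 9 months (0% to 0.397% of all genes), 19 to 29 for age in DBA/2J (17.1% to 25.4%), 0 to 15 for age in D2-Gpnmb+ (0% to 15.9%), 14 to 26 for nicotinamide (9.2% to 18.3%), 1 to 3 for nicotinamide against 4 months (0.122% to 3.14%) and 0 to 3 for the interaction (0.0637% to 1.68%). Within block 3 only 9-month water libraries were left out in turn, and no 4-month or nicotinamide library was. This gave 0 to 2 calls for strain at 9 months (0% to 0.285%), 0 to 1 for age in DBA/2J (0.0431% to 1.83%) and 0 to 4 for nicotinamide (0% to 2.77%). Leaving out each library of block 1 gave 7 to 14 (7, 10, 11, 11, 11, 12, 12, 13, 13 and 14). No paired analysis was possible because the numbers in the sample titles differ between samples and the column numbers only name libraries. Depth limits members such as Syt17 and Rims3, which had no read in some libraries.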
